A study of Aspergillus nidulans with 6 samples.

Results

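Trehalose, glycerol and mannitol are the small carbohydrates that filamentous fungi make and store, and 7 genes of their metabolism in Aspergillus nidulans are described here. They were chosen by gene ID for their pathway, with earlier results of these data known, and all 7 were found among the 10988 features of the table. They are tpsA (AN5523), orlA (AN3441), treA (AN9340), treB (AN5635), gfdA (AN0351), gfdB (AN6792) and the mannitol-1-phosphate dehydrogenase gene AN5975. The reference gene table places AN0351 and AN9340 on chromosome VIII, AN5523 and AN5635 on chromosome V, AN3441 on chromosome VI, and AN6792 and AN5975 on chromosome I. No adjacent gene overlapped any of them in that table. RNA came from mycelium of the wild type FGSC A4, grown in Barratt's minimal broth at 37 °C with shaking at 220 rpm. The 3 untreated libraries came from cultures without added tyrosol, and the 3 tyrosol libraries from cultures given 35 mM tyrosol during exponential growth. Tyrosol is a phenolic alcohol made from tyrosine. The exposure time is not stated in the labels. Whether the replicates are separate cultures is not stated either, and p-values here cover only the spread among these libraries, which may be technical.

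Trehalose is a glucose disaccharide that fungi hold as a reserve and as a protectant against heat, drying and oxidants. It is made in a pair of steps: trehalose-6-phosphate synthase joins glucose-6-phosphate to UDP-glucose, and trehalose-6-phosphate phosphatase removes the phosphate. Trehalases split it back to glucose. Glycerol is the main solute with which many fungi balance osmotic stress, and its synthesis starts when glycerol-3-phosphate dehydrogenase reduces dihydroxyacetone phosphate. Mannitol is the polyol that Aspergillus species lay down in spores and mycelium, and mannitol-1-phosphate dehydrogenase makes its precursor from fructose-6-phosphate.

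The libraries held 9353438 to 11917409 counted reads. Levels are given as RPKM, the deposited read count per unit of gene length and of library total, so that genes can be compared per length. Changes are given as the log2 fold change of tyrosol over untreated ± SE, from edgeR's quasi-likelihood test on the counts with TMM scaling, and a gene was called at a Benjamini-Hochberg adjusted p under 0.05 over 8905 tested features. The most abundant 50 features took 15.5% to 15.6% of reads in the untreated libraries and 18.3% to 19% in the tyrosol libraries, and TMM factors were 1.07 to 1.09 and 0.919 to 0.929. Ratios of RPKM values therefore come out lower than the TMM fold changes. Scaling by library size alone shifted the median over all tested features by -0.224 on the log2 scale.

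All 7 genes passed the filter on low counts. Of the 7, 3 were lowered (AN5975, gfdB and treB), 1 was raised (treA) and 3 did not pass (tpsA, orlA and gfdA). Among all tested features 83.5% were called, 42.9% lowered and 40.6% raised, so a call as such was the common state in this comparison. The 3 lowered genes all fell at least 2-fold, as did 24.5% of tested features. The median log2 fold change of the 7 genes was -0.19, against -0.04 for all tested features. On TMM-scaled values the groups did not overlap for the 4 called genes, that is 4 of 7, against 84.8% of tested features. In bulk RNA such as this, fewer hyphae that express a gene and less of its RNA per hypha cannot be told apart.

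**Figure D1:**
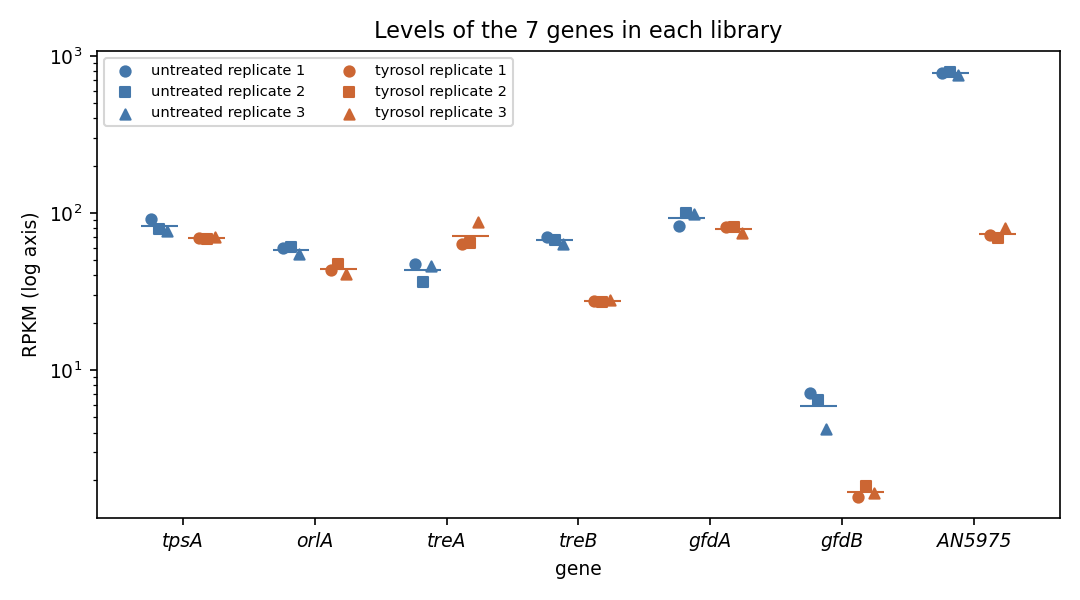
RPKM (log axis) of each of the 7 genes in each of the 6 libraries; points are libraries, shapes are replicate numbers and bars are group means. AN5975 stood at 758 to 789.7 RPKM untreated and 69.0 to 80.6 with tyrosol, and the range of treA was the only one of the 7 to lie higher with tyrosol.

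Mannitol-1-phosphate dehydrogenase had both the highest untreated level and the largest change of the 7. AN5975 stood at 779, 789.7 and 758 RPKM in untreated replicates 1, 2 and 3 and at 72.3, 69.0 and 80.6 RPKM in the tyrosol replicates. All tyrosol libraries lay far below all untreated ones, and the replicates of each group lay close together. Its mean level was 775 ± 16.3 RPKM untreated and 74.0 ± 5.99 RPKM with tyrosol (SD, n = 3). Its log2 fold change was -3.16 ± 0.09 (adjusted p = 4.58e-12), an 8.97-fold fall. Only 3.19% of tested features had a lower log2 fold change. Ranked by mean RPKM among the genes with an AN number, it was number 168 untreated and number 1533 with tyrosol. It supplied 68.5% to 69.3% of the summed RPKM of the 7 genes in the untreated libraries and 19.2% to 21.1% in the tyrosol libraries.

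The glycerol-3-phosphate dehydrogenase genes gfdA and gfdB differed in level and in their values with tyrosol. The gfdA gene stood at 82.3, 100.2 and 98.0 RPKM untreated and at 81.5, 81.9 and 74.5 RPKM with tyrosol. These RPKM ranges lie next to each other, with tyrosol just below, and they overlap on the TMM scale. Its log2 fold change was -0.01 ± 0.09 (adjusted p = 0.905) and did not pass. Under scaling by library size alone the value was -0.24 and passed (adjusted p = 0.0313), and with DESeq2 size factors it was 0.031 and did not pass. With TMM scaling 50.8% of tested features had a lower log2 fold change than gfdA.

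The gfdB gene was weakly expressed. Its read counts were 112, 102 and 52 untreated and 22, 27 and 25 with tyrosol, which is 7.11, 6.48 and 4.21 RPKM against 1.57, 1.82 and 1.64 RPKM. Untreated replicate 3 was the lowest of its group, and the groups did not overlap. The log2 fold change was -1.61 ± 0.23 (adjusted p = 2.18e-05), a 3.06-fold fall. The coefficient of variation of its RPKM was 25.8% untreated and 7.69% with tyrosol, and its SE was the largest of the 7. Within a library gfdA exceeded gfdB by 11.6, 15.5 and 23.3 times untreated and by 52.1, 45.1 and 45.3 times with tyrosol. The gfdA share of the pair was therefore larger with tyrosol in each tyrosol library than in any untreated one. Because gfdA and gfdB are related genes and the counting of shared reads is not given in the sources used here, a small part of the gfdB reads could come from gfdA, and this was not tested.

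Neither member for trehalose synthesis, tpsA or orlA, passed the test with TMM scaling. The ccg9 gene, matched by symbol and described below, is not a member and was lowered. The tpsA gene, for trehalose-6-phosphate synthase, stood at 91.4, 79.1 and 76.4 RPKM untreated and at 69.4, 68.7 and 70.0 RPKM with tyrosol. The tyrosol libraries lay within a narrow band just below the untreated ones on this scale, and the groups overlapped on the TMM scale. Its log2 fold change was -0.02 ± 0.09 (adjusted p = 0.814). The orlA gene, for trehalose-6-phosphate phosphatase, stood at 59.5, 60.9 and 54.9 RPKM untreated and at 43.1, 47.1 and 41.2 RPKM with tyrosol. Again all tyrosol libraries were lower in RPKM, while the groups overlapped on the TMM scale. Its log2 fold change of -0.19 ± 0.09 (adjusted p = 0.0519) lay just outside the threshold.

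The call of these genes depended on the scaling. Under scaling by library size alone tpsA was at -0.25 (adjusted p = 0.0186) and orlA at -0.42 (adjusted p = 0.000504). With upper-quartile factors orlA was at -0.26 (adjusted p = 0.0121) and tpsA did not pass. Leaving out untreated replicate 3 took orlA to -0.24 (adjusted p = 0.0185). With DESeq2 size factors tpsA turned to 0.02 and did not pass. The 3 genes without a call, tpsA, orlA and gfdA, thus had values no larger than 0.42 on the log2 scale under the 4 scalings.

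**Figure D2:**
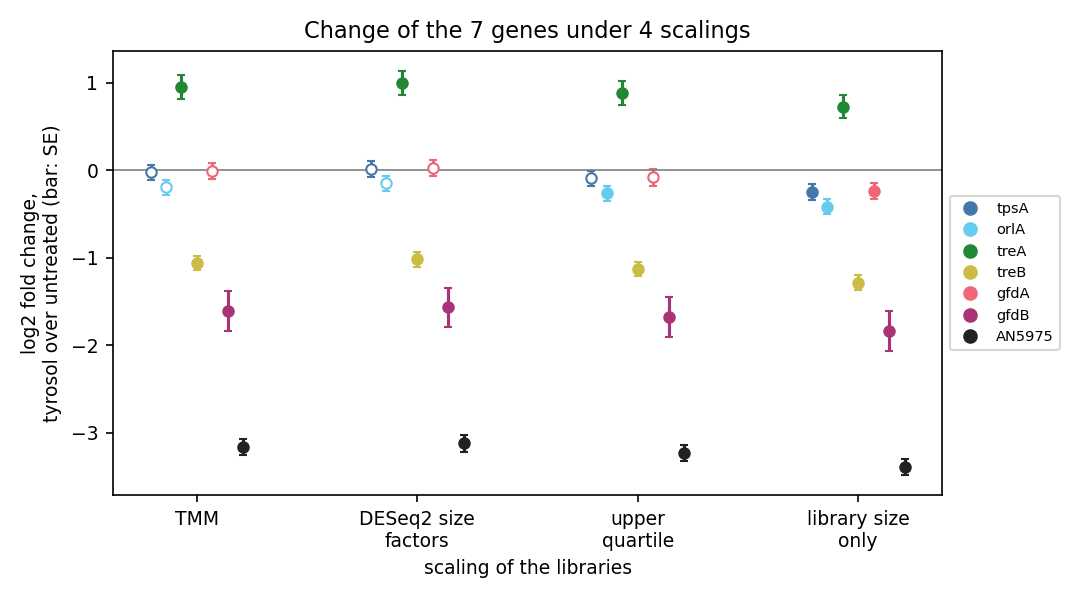
Log2 fold change of tyrosol over untreated (error bars, SE from edgeR's quasi-likelihood fit) for the 7 genes under 4 scalings of the libraries; filled points have an adjusted p under 0.05. The points of treA, treB, gfdB and AN5975 are filled under all 4 scalings, whereas those of tpsA and gfdA are filled only with library size, and that of orlA with library size and upper-quartile factors.

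The trehalase genes went in opposite directions. The treA gene encodes the acid trehalase, which in A. nidulans is found in the conidial wall and is needed to grow on trehalose as carbon source. It stood at 47.3, 36.3 and 46.2 RPKM untreated and at 63.2, 64.1 and 87.2 RPKM with tyrosol. All tyrosol libraries were higher, and tyrosol replicate 3 stood above the other two. The gene rose by 0.95 ± 0.14 on the log2 scale (adjusted p = 2.23e-05), a 1.94-fold rise, and the value was 0.79 without tyrosol replicate 3. Among tested features, 23.9% had a higher log2 fold change. Conidiation genes named in the reference table were looked at as well, 5 matched of a set of 7 chosen after these data were seen. Their direction was opposite to that of treA, and a relation to treA was not tested. The regulators brlA, abaA and wetA, the pigment gene yA and the hydrophobin gene rodA, 5 of 5, were lowered, as were 42.9% of tested features. Outside this set, named conidiation regulators went both ways, with flbD at -3.24 (adjusted p = 2.23e-10) and flbE at 1.02 (adjusted p = 3.06e-06). The summed level of the 5 was 213 to 244 RPKM untreated and 131 to 167 RPKM with tyrosol. None was at 0, but wetA had only 5 reads in each tyrosol library. Most of the sum was rodA, at 189 ± 13.5 RPKM untreated. The rodA change itself was small, at -0.31 on the log2 scale (adjusted p = 0.0187), and its groups overlapped on the TMM scale.

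The treB gene encodes the neutral trehalase, a cytosolic enzyme that mobilizes stored trehalose when spores germinate. It stood at 70.7, 66.9 and 63.1 RPKM untreated and at 27.5, 27.2 and 27.8 RPKM with tyrosol. The tyrosol libraries were all lower and hardly differed among themselves, with a coefficient of variation of 1.06%. The fall was 2.08-fold, which is a log2 value of -1.06 ± 0.08 (adjusted p = 5.44e-08).

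**Figure D3:**
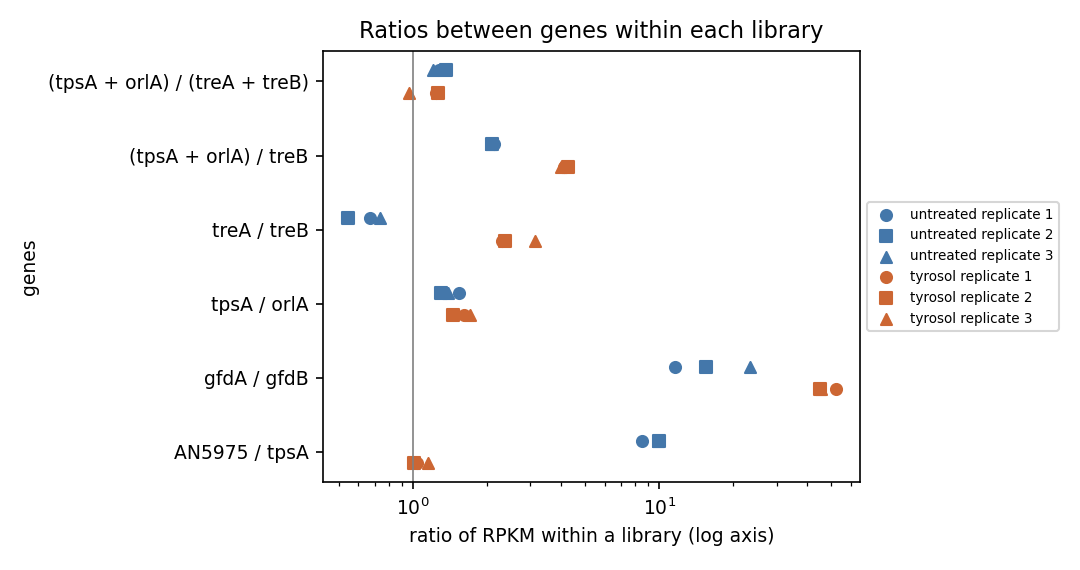
Ratios of RPKM between genes within each library (log axis); points are libraries and shapes are replicate numbers. The ratio of treA to treB lay at 0.542 to 0.731 untreated and 2.30 to 3.14 with tyrosol, while the ratio of summed tpsA and orlA to the summed trehalase genes overlapped between the groups.

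Ratios within a library do not depend on how libraries are scaled, and they are given as a description without a test. An exact two-sided permutation test of 3 against 3 libraries could not go below 0.1. The ratio of treA to treB was 0.669, 0.542 and 0.731 untreated and 2.30, 2.36 and 3.14 with tyrosol. The trehalase with the higher level per length was thus treB in every untreated library and treA in every tyrosol library. The ratio of the synthesis genes tpsA to orlA was 1.30 to 1.54 untreated and 1.46 to 1.70 with tyrosol, and these ranges overlap.

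Set against the trehalases, the outcome depended on which trehalase was counted. The summed RPKM of tpsA and orlA over that of treA and treB was 1.28, 1.36 and 1.20 untreated and 1.24, 1.27 and 0.966 with tyrosol. These ranges overlap, with tyrosol replicate 3, the library highest in treA, alone below 1. Over treB alone the same sum was 2.14, 2.09 and 2.08 untreated and 4.09, 4.25 and 3.997 with tyrosol, with no overlap. The sum was not set over treA alone. The ratio of orlA by itself to treA went the other way, at 1.19 to 1.68 untreated and 0.472 to 0.735 with tyrosol.

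The ratio of AN5975 to tpsA set the mannitol branch against trehalose synthesis. It was 8.52, 9.99 and 9.92 untreated and 1.04, 1.01 and 1.15 with tyrosol, which do not overlap. The ratio of AN5975 to gfdA was 7.73 to 9.47 untreated and 0.843 to 1.08 with tyrosol. The mannitol gene stood well above tpsA and gfdA in every untreated library and near their level in every tyrosol library.

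The order of the levels changed accordingly. In RPKM the untreated order was AN5975, gfdA (93.5 ± 9.79), tpsA (82.3 ± 8.03), treB (66.9 ± 3.78), orlA (58.4 ± 3.15), treA (43.2 ± 6.07) and gfdB (5.93 ± 1.53). Of the neighbours in this order, gfdA and tpsA overlapped between libraries and the others did not. The tyrosol order was gfdA (79.3 ± 4.20), AN5975 (74.0 ± 5.99), treA (71.5 ± 13.6), tpsA (69.3 ± 0.651), orlA (43.8 ± 3.02), treB (27.5 ± 0.292) and gfdB (1.68 ± 0.129). Each neighbouring pair among gfdA, AN5975, treA and tpsA overlapped there, although gfdA lay above tpsA in every tyrosol library. The orlA, treB and gfdB genes each stood apart.

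**Figure D4:**
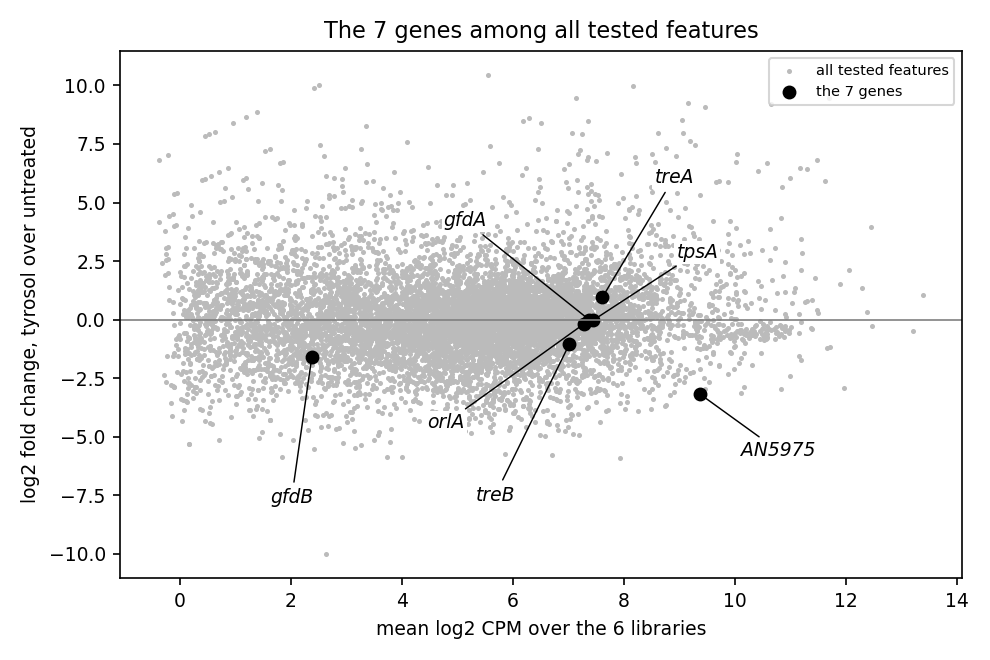
Log2 fold change of tyrosol over untreated against mean log2 CPM for 8905 tested features (grey) and the 7 genes (black). AN5975, at a mean log2 CPM of 9.36, lies lowest of the 7, gfdB lies at the weakly expressed end at 2.38, and tpsA, orlA and gfdA lie near 0.

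Further genes were taken from the reference table by symbol alone, and whether each belongs to these pathways was not checked. The trehalose, glycerol, mannitol, supply and regulator lists held 18, 22, 13, 22 and 28 symbols, synonyms included. Of these, 21 matched, 2 of them the members orlA and treA, and no symbol of the mannitol list was matched. The 8 matched genes outside the regulators were all lowered, and 5 fell at least 2-fold. Their median change was -1.29 on the log2 scale. Among all tested features 42.9% were lowered. All 8 stayed lowered under each of the 16 alternatives. The lists were written with earlier results of these data known, so this count is a description.

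In the trehalose list the only other match was ccg9 (AN5021), named after a clock-controlled gene that encodes a trehalose synthase in Neurospora crassa. It stood at 69.9, 59.5 and 41.4 RPKM untreated and at 7.93, 9.68 and 9.63 RPKM with tyrosol, without overlap, and its log2 fold change was -2.43 ± 0.17 (adjusted p = 1.92e-08). For the supply of UDP-glucose and hexose phosphates, 3 of 22 listed symbols matched, ugp1, pgmA and pmi1. All 3 were lowered, as were 42.9% of tested features. The ugp1 gene (AN9148), for the enzyme that makes the UDP-glucose used by trehalose-6-phosphate synthase, stood at 355, 287 and 283 RPKM untreated and at 43.3, 44.0 and 48.5 RPKM with tyrosol. Its log2 fold change was -2.54 ± 0.11 (adjusted p = 1.39e-10), larger in size than that of any of the 4 trehalose genes. The pgmA gene (AN2867) fell by 1.05 and the mannose-6-phosphate isomerase gene pmi1 (AN0667) fell by 0.69 on the log2 scale.

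Of the 22 symbols of the glycerol list 4 matched, and all 4 genes were lowered, as were 42.9% of tested features. The gldB gene (AN5563) encodes the NADP-dependent glycerol dehydrogenase that makes glycerol from dihydroxyacetone and is needed for osmotic tolerance in A. nidulans. It stood at 339.5, 325 and 287 RPKM untreated and at 30.5, 26.5 and 33.8 RPKM with tyrosol, and the change was -3.16 ± 0.11 on the log2 scale (adjusted p = 2.61e-11). This 8.96-fold fall stood beside the 8.97-fold fall of AN5975 and the uncalled value of gfdA. The other 3 were gup1 (AN8706, -1.52 ± 0.12), named after a yeast gene first described in glycerol uptake, glcA (AN0410, -0.82 ± 0.08) and gcy1 (AN1274, -0.51 ± 0.08), named after a yeast glycerol dehydrogenase gene. These 3 were matched by symbol alone, and a role in glycerol metabolism was not checked, so some may lie outside the pathway.

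**Figure D5:**
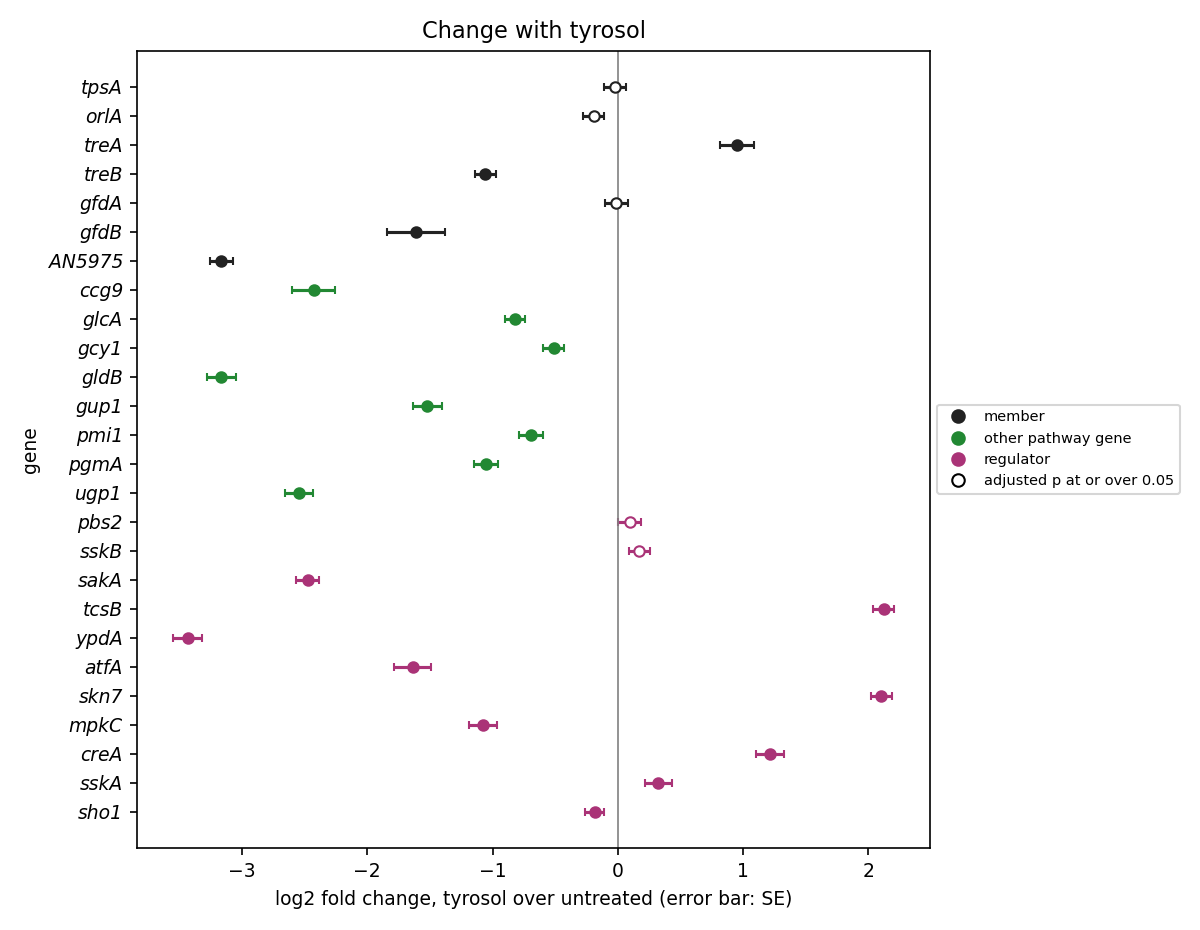
Log2 fold change of tyrosol over untreated (error bars, SE) for the 7 genes, the 8 other pathway genes (matched by symbol alone) and the 11 regulators; open points have an adjusted p of 0.05 or more. All 8 other pathway genes lie below 0, and the regulators lie on both sides.

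The regulator list matched 11 genes, whose action on the 7 genes was not tested. Of these 11, 5 were lowered, 4 raised and 2 did not pass, with a median log2 fold change of 0.10. These shares lie near those of all tested features, 42.9% lowered and 40.6% raised. The kinase gene sakA (AN1017), counterpart of yeast HOG1, fell by 2.48 and the phosphotransfer protein gene ypdA (AN2005) fell by 3.43 on the log2 scale. The carbon catabolite repressor gene creA (AN6195) rose by 1.22. The bZIP factor gene atfA (AN2911) fell by 1.64 and the kinase gene mpkC (AN4668) fell by 1.07. The histidine kinase gene tcsB (AN1800) rose by 2.12 and the response regulator gene skn7 (AN3688) by 2.10. The calls of these 7 regulators held in all 16 alternatives. The response regulator gene sskA (0.32, adjusted p = 0.0125) and the membrane sensor gene sho1 (-0.19, adjusted p = 0.0414) passed with TMM scaling, but sskA passed in 13 and sho1 in 8 of the 16 alternatives. The kinase gene pbs2 (0.10, and -0.13 with library size alone) passed in none of them. Its fellow kinase gene sskB (0.17, adjusted p = 0.0708) passed in 4, among them DESeq2 size factors (0.21, adjusted p = 0.0283), and turned to -0.054 with library size alone.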

How the data were processed

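Per the labels' protocols, total RNA of lyophilized mycelium was made into TruSeq RNA libraries. Per the submitters' processing notes, HISAT2 2.1.0, FastQC, edgeR and DESeq2 1.24.0 were used, without a stated role. No source used here gives the counting tool, its strand setting, the annotation or the build, so reads of antisense or related genes may be shared. Per the file headers, the deposited table holds whole-number read counts, gene lengths and RPKM values for 6 libraries. The deposited RPKM equals the count divided by length and column total, within a relative difference of 1.26e-14. The T columns were read as tyrosol and K as untreated (K for the Hungarian word for control), with column numbers as the replicate numbers in the titles.

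The counts entered edgeR 4.0.16 (R 4.3.3; filterByExpr, TMM, two-sided quasi-likelihood test, no covariate, Benjamini-Hochberg adjustment over all 8905 tested features). The SE was computed as |log2 fold change|/√F. The test was run on simulated counts of 8835 genes, with 67 changed 1.5-fold, 66 changed 2-fold and 65 changed 4-fold, up or down. It recovered 76.1%, 97% and 100% of these, and 4.76% of its calls were false. Far more features were called in the real data, so this run does not check the TMM scaling. The simulated spread was taken from these same libraries, so the recovery and false-call rates hold for the simulated counts only. Replicates of a group differed by more than sampling noise (by chi-square tests of their counts, 5.15 to 23.0 for each degree of freedom). Alternatives used DESeq2 1.42.0, limma 3.58.1, other scalings and filters, a replicate block and each library left out. Symbols were looked up in RefSeq's gene table for assembly ASM1142v1, which names 2 of the 7 genes; the other names came with the gene IDs. That table was used only for names, chromosomes and gene order. The genes named are the 7 and every matched gene of 5 symbol lists. Outside that rule, 5 conidiation genes were chosen after the data were seen, and flbD and flbE are named beside them. The members and lists were chosen with earlier results of these data known. Sequences are not used here.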

Additional observations from a re-analysis of the deposited data

How the results depend on the processing

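The calls of AN5975, treA, treB and gfdB kept their direction and stayed under the threshold in all 16 alternatives, with log2 fold changes of -3.39 to -3.10, 0.71 to 1.06, -1.28 to -1.01 and -1.83 to -1.35. The number of lowered members was 3 in the main fit, and 4 with limma-voom and with upper-quartile factors. It was 6 with library size only, with limma on log2(RPKM + 1) and with limma on log2(RPKM + 0.1), none of which uses TMM factors. Under these 3 settings gfdA was at -0.24, -0.23 and -0.23, tpsA at -0.25, -0.24 and -0.24, and orlA at -0.42, -0.41 and -0.42. The orlA gene also passed with limma-voom (-0.19, adjusted p = 0.0473) and with upper-quartile factors (-0.26). Without a call, tpsA turned to 0.020 with DESeq2 size factors and 0.020 with the DESeq2 Wald test, and gfdA to 0.031 with each of these and 0.0071 with the filter of 50 reads in 3 libraries. With 1 library left out, tpsA ran from -0.079 to 0.063, gfdA from -0.094 to 0.039 and orlA from -0.24 to -0.15 (adjusted p = 0.0185 to 0.206, the lowest without untreated replicate 3), and the number of lowered members from 3 to 4. For regulators, pbs2 turned to -0.13 (library size), -0.12 (log2(RPKM + 0.1)) and -0.12 (log2(RPKM + 1)), and sskB to -0.054, -0.054 and -0.052. The log2 difference between groups in the ratio of summed tpsA and orlA to the trehalase genes was -0.15, and 0.97 with treB alone as trehalase. With the replicate block 7383 features changed, against 7432 without it, no call of the 7 genes changed, and sho1 was the only matched regulator to lose its call (-0.19, adjusted p = 0.0741), which it also lost in 7 other alternatives, 4 of them with a library left out. The sskA gene lost its call in 3, with library size (0.10, adjusted p = 0.378) and both RPKM fits. Same-numbered libraries correlated at -0.0821, -0.00593 and -0.0404 in their deviations from the group means, and differently numbered ones at -0.0432 to 0.0781. With 3 libraries per group these values cannot show whether equal numbers mark a shared batch, and the labels do not state it. The depth limits gfdB most, at 22 to 27 reads per tyrosol library.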

Other observations

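Of the 14 genes on either side of the 7 members in the reference order, 5 were raised, 5 were lowered, 3 did not pass and 1 was not tested. Among all tested features 40.6% were raised and 42.9% lowered. Both neighbours of treB were raised, whereas treB itself was lowered, a case singled out after the values were seen. These genes were counted only for their position, and no relation to the members was tested.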
